A study of Rattus norvegicus with 8 samples.

Results

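The genes described here are 10 genes of hepatic stellate cells and of the extracellular matrix: Col1a1, Col1a2, Col3a1, Col4a1, Col6a3, Loxl2, Sparc, Dcn, Timp1 and Pdgfrb. They were chosen by name, and every probe set annotated to exactly 1 gene, that gene being one of the 10, was taken. This gave 18 of the 31042 probe sets on the array and 10 of the 14213 genes with such a probe set. Affymetrix arrays, 1 per rat, measured the liver transcripts of 8 male Sprague-Dawley rats that were 7 weeks old. The 4 L. brevis rats ate a rodent chow (CRF-1) with 10 g cholesterol, 5 g cholic acid and 10 g freeze-dried live Lactobacillus brevis 119-2 per kg for 2 weeks, a lactic acid bacterium isolated from turnip. The 4 control rats ate that chow with the same cholesterol and cholic acid but no bacteria, as the series' design text states, although their own source labels mention just the chow. The design text gives 11 rats per group, so the arrays cover some of them. The series concerns cholesterol in the liver, and no source used here names the matrix genes as its question.

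Hepatic stellate cells lie between the hepatocytes and the sinusoidal endothelium, where they store vitamin A as retinyl esters. In injured liver they turn into contractile myofibroblasts under the influence of TGF-beta and PDGF, and they are a main source of scar collagen. Fibrillar collagens are secreted as triple helices, trimmed by proteases, crosslinked through oxidised lysines and bound by small proteoglycans, while matrix metalloproteinases and their inhibitors set how long the fibres last. Liver pieces hold all liver cell types, so in these arrays fewer cells of a type and less RNA per cell cannot be told apart.

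None of the 10 genes passed the adjusted threshold between the diets. Only 9 of the 18 probe sets carried a measurable difference between rats, and they represent 7 genes. At these, Col6a3 and Pdgfrb had lower signals and Loxl2 a higher signal in the L. brevis livers, each at an unadjusted p under 0.05, and Sparc had 2 probe sets that differed in opposite directions. Col3a1, Dcn and the brighter probe set of Col1a2 differed by less than the within-diet SD, whereas the dimmer probe set of Col1a2 differed by more than its SD but had an adjusted p of 0.224 by limma. Values are log2 signals, differences are L. brevis minus control on the log2 scale, and the test was limma over the 6323 probe sets that varied between arrays, adjusted by the Benjamini-Hochberg method at a threshold of 0.05.

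The deposited values set a limit before any comparison. A probe set is called varying here when its 8 values span more than 0.01 log2, which holds for 20.4% of all probe sets. The 9 other probe sets of these genes were constant over the 8 arrays, with a range of at most 8.4e-08 log2. Both probe sets of Col1a1, the alpha 1 chain of type I collagen, were of this kind, at 7.33 and 7.25. So were both probe sets of Col4a1, a basement membrane collagen chain, at 7.92 and 7.67, and the only probe set of Timp1, a metalloproteinase inhibitor, at 7.08. A constant value shows neither a change nor its absence in these 3 genes. One further probe set each of Col6a3 and Loxl2, at 6.27 and 6.25, and 2 of Pdgfrb, at 6.78 and 6.76, were flat as well. In all, 7 of the 10 genes had a varying probe set, against 29.3% of all genes. The arrays of a group were distinct, with no identical pair.

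Several features of the arrays bear on what follows. The GAPDH control probe sets for the 5' and 3' ends of the transcript differed by -2.20, -1.30, -0.94 and -0.68 log2 in L. brevis rats 1 to 4 and by -2.89, -1.83, -2.93 and -1.98 in control rats 1 to 4. This GAPDH end difference becomes more negative as RNA is degraded or copied incompletely, and it was less negative in 3 of the L. brevis livers than in every control liver. Rat L. brevis 1 stood farthest from its group, with a mean absolute deviation of 0.311 log2 over the varying probe sets. The deviations of L. brevis 2 to 4 were 0.170 to 0.254, and those of the control rats 0.177 to 0.217. Rat L. brevis 2 carried skeletal muscle genes: the summed linear signal of 11 varying muscle markers was 12500 there. The sum was 2470 to 2910 in L. brevis 1, 3 and 4, and the control rats had 2030 to 3250. By their mean over all rats Myh1, Tnnc2 and Tnni2 were the brightest, but Myh1 was bright in every liver (10.40 to 11.32). In L. brevis 2 Acta1 had 12.45 and Myl1 10.51, against at most 5.54 and 5.65 in control livers. Both were named after their values were seen.

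Among the stellate cell markers fixed for checking the name, the defining genes were present in part. Lrat, the enzyme that makes retinyl esters, ranged over 7.70 to 8.41 in L. brevis and 7.72 to 8.39 in control livers. Reln, an extracellular glycoprotein of stellate cells in liver, ranged over 9.18 to 9.93 and Colec11, a collectin, over 10.14 to 10.52 in L. brevis livers, against 9.05 to 9.95 and 10.20 to 10.42 in control livers. The diets overlapped in all 3, with differences of +0.03 (SE 0.19, adjusted p = 0.957), -0.23 (SE 0.25, adjusted p = 0.583) and -0.07 (SE 0.10, adjusted p = 0.682) by limma. For Reln this is the brighter varying probe set, and a dimmer one differed by +0.62. Des, Hgf, Ngfr and Cygb held 1 value on all arrays, and Pdgfrb is given below.

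The RefSeq promoter table (build GRCr8) held 5 of the 10 genes, and the 250 bases before the annotated start are shown for 2 of them. Col1a2 is shown because it moved with Col3a1 and Dcn across the rats, and Sparc because its probe sets differed in opposite directions. Capitals mark matches, on either strand, to the TATA box letters TATAAA, the CCAAT box letters CCAAT or the GC box letters GGGCGG, and no match overlaps another.
Col1a2, chr4:33518307-33518556, plus strand: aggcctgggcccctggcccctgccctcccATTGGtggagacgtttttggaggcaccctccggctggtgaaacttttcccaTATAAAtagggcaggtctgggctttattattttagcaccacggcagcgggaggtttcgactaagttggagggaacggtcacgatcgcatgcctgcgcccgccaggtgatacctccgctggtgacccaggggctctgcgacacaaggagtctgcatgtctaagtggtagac
Sparc, chr10:40038817-40039066, minus strand: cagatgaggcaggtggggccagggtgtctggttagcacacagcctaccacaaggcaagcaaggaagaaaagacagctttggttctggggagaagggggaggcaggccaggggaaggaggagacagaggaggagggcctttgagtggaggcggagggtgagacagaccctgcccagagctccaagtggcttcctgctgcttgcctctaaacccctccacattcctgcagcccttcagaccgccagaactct
The Col1a2 stretch held TATAAA with its first base at -170 and CCAAT on the other strand at -221 from the annotated start, and no GGGCGG. The Sparc stretch held none of the 3 letter strings. Over the 27457 promoter stretches of this length, 13.1% held TATAAA, 34.3% CCAAT and 32.4% GGGCGG.

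Type I and type III collagen form the main fibrils of liver scar. Col3a1, the type III chain, had 11.04, 11.72, 11.18 and 11.60 in L. brevis rats 1 to 4, against 11.56, 11.63, 11.37 and 11.18 in control rats 1 to 4. Rats of both diets lay at the top and at the bottom, and the groups overlapped. The difference was -0.05 (SE 0.18, 95% interval -0.46 to 0.37, adjusted p = 0.898, limma), and it was 0.07 without L. brevis 1, so its direction rests on single rats.

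Col1a2, the alpha 2 chain of type I collagen, had 2 varying probe sets. The brighter one had 8.11, 8.80, 8.57 and 8.84 in L. brevis rats 1 to 4, against 8.52, 8.94, 8.60 and 8.69 in control rats 1 to 4. The dimmer one had 7.87, 8.64, 8.16 and 8.52 in L. brevis rats, against 8.62, 8.65, 8.63 and 8.78 in control rats. At both probe sets L. brevis 1 was the lowest of all 8 rats. At the second, 3 of the 4 L. brevis rats were below every control rat. The differences were -0.10 (SE 0.18, adjusted p = 0.757) and -0.37 (SE 0.17, 95% interval -0.77 to 0.03, adjusted p = 0.224) by limma. Without L. brevis 1 they were 0.06 and -0.23.

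Col6a3, a chain of the type VI collagen that forms beaded microfibrils around cells, was lower in every L. brevis liver. It had 7.58, 7.81, 7.74 and 7.87 in L. brevis rats 1 to 4, against 8.11, 8.29, 7.98 and 7.96 in control rats 1 to 4. The groups did not overlap, and L. brevis 4 lay closest to control 4. The means were 7.75 ± 0.13 in L. brevis and 8.08 ± 0.15 in control livers (SD, n = 4 each), a difference of -0.33 (SE 0.10, 95% interval -0.57 to -0.09), or 1.26-fold lower, with an unadjusted p of 0.0128 and an adjusted p of 0.142 by limma. It was the one member at an unadjusted p under 0.05 whose difference was larger, at -0.49 (SE 0.12), with the GAPDH end difference as a covariate, although its adjusted p was then 0.474.

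Loxl2, which oxidises lysines so that collagens can be crosslinked, was slightly higher in every L. brevis liver. It had 6.94, 6.97, 7.09 and 7.03 in L. brevis rats 1 to 4, against 6.71, 6.74, 6.73 and 6.91 in control rats 1 to 4. The groups did not overlap, and control 4 lay close to the L. brevis range. The signal was dim in every rat, not far above the array medians of 6.61 to 6.63. The means were 7.01 ± 0.068 in L. brevis and 6.77 ± 0.095 in control livers (SD, n = 4 each), a difference of +0.23 (SE 0.06, 95% interval 0.08 to 0.39), or 1.18-fold, with an unadjusted p of 0.00767 and an adjusted p of 0.136 by limma. Without L. brevis 1 it was 0.26 with an adjusted p of 0.0475.

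Sparc encodes a secreted glycoprotein that binds collagen and calcium. Its brighter probe set had 9.65, 10.06, 10.02 and 10.16 in L. brevis rats 1 to 4, against 8.51, 9.41, 9.43 and 9.70 in control rats 1 to 4. Its dimmer probe set had 8.42, 8.44, 8.18 and 8.34 in L. brevis rats, against 8.78, 8.80, 8.68 and 8.39 in control rats. The first placed 3 L. brevis rats above every control rat and the second placed 2 of them below every control rat, and at each the groups overlapped through control 4. The differences were +0.70 (SE 0.26, 95% interval 0.10 to 1.31) and -0.32 (SE 0.12, 95% interval -0.59 to -0.05), each with an adjusted p of 0.168 by limma. The brighter probe set gave 0.45 without control 1, whose value of 8.51 was the lowest of all rats. Across the 8 rats the 2 probe sets were inversely related (Pearson r = -0.79, exact permutation p = 0.0098, adjusted p = 0.0196 over the 2 genes with 2 varying probe sets; Spearman rho = -0.79, exact permutation p = 0.0279, adjusted p = 0.0558). The relation was -0.82 without the 2 rats farthest from the median and -0.55 with diet means removed. For Col1a2 the same relation was positive (r = 0.76, exact permutation p = 0.0395, adjusted p = 0.0395; rho = 0.62, exact permutation p = 0.115, adjusted p = 0.115), but 0.23 without the 2 farthest rats. No direction of Sparc can therefore be read from these arrays.

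Dcn, decorin, a small proteoglycan that binds collagen fibrils and TGF-beta, was the most variable of the members. It had 6.20, 9.53, 7.42 and 8.33 in L. brevis rats 1 to 4, against 7.02, 8.50, 6.04 and 7.43 in control rats 1 to 4. Both diets spanned most of the range, and the highest value came from L. brevis 2, the liver with the muscle genes. The within-diet SD was 1.23 log2, against a median of 0.220 over all varying probe sets. The difference was +0.62 (SE 0.78, 95% interval -1.20 to 2.45, adjusted p = 0.650, limma). It was 0.07 without L. brevis 2, 1.18 without L. brevis 1, 1.04 without control 2, 0.22 without control 3 and -0.90 with the GAPDH end difference as a covariate. What part the muscle tissue has in the Dcn value was not tested.

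Pdgfrb is the receptor through which PDGF drives stellate cells and pericytes to divide and migrate. Its varying probe set had 7.34, 6.89, 6.80 and 6.99 in L. brevis rats 1 to 4, against 7.59, 7.44, 7.47 and 7.20 in control rats 1 to 4. Of the L. brevis rats 3 were below every control rat, and L. brevis 1 lay inside the control range. The means were 7.01 ± 0.23 in L. brevis and 7.43 ± 0.16 in control livers (SD, n = 4 each), a difference of -0.42 (SE 0.14, 95% interval -0.74 to -0.10), or 1.34-fold lower, with an unadjusted p of 0.0160 and an adjusted p of 0.150 by limma. Without L. brevis 1 it was -0.53 with an adjusted p of 0.0277.

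**Figure D1:**
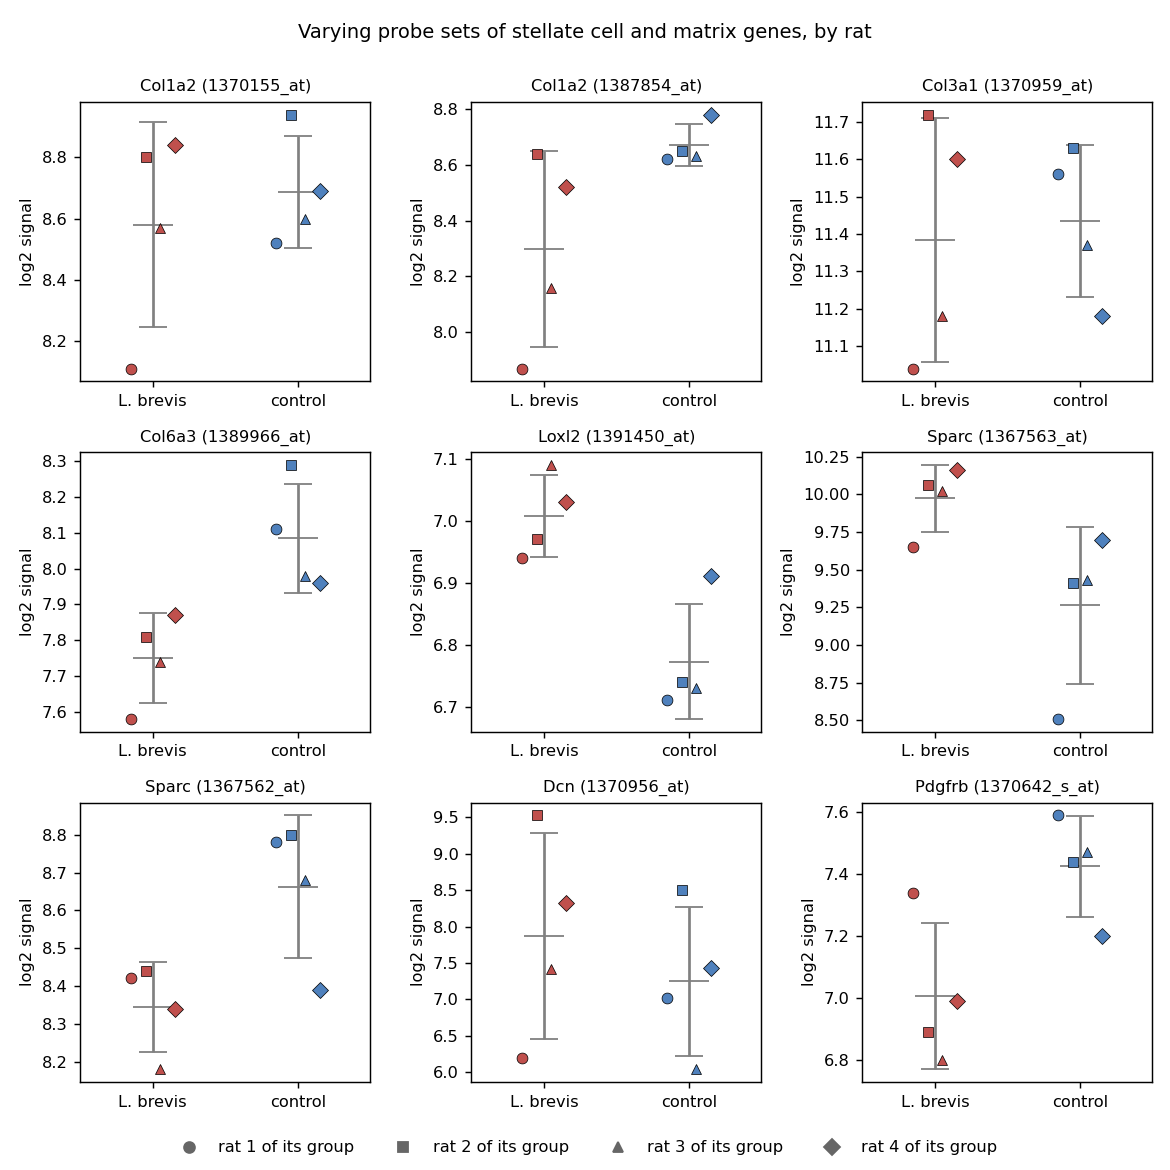
Log2 signal of the 9 varying probe sets in each rat, L. brevis to the left of control, with the marker shape giving the rat's number in its group and the grey bars the mean ± SD of 4 rats. The groups do not overlap for Col6a3 and Loxl2, the 2 Sparc panels differ in opposite directions, and Dcn spans 6.04 to 9.53.

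Taken over the 7 represented genes, each at its brightest varying probe set, 3 were higher and 4 lower in L. brevis livers. The adjusted threshold was passed by 0 of the 7 by limma, beside 0.0481% of all represented genes and 0.0633% of all varying probe sets. At an unadjusted p under 0.05 there were 2 higher and 2 lower, where 21.5% of all represented genes lay (8.66% higher and 12.9% lower). Sparc counts as higher through its brighter probe set, while its dimmer one was lower (-0.32, unadjusted p = 0.0263, limma). In 2 of the 7 the groups did not overlap, against 10.6% of all represented genes. The median difference was -0.05, and that of all represented genes was -0.027. The direction of this median is not stable, since it was 0.07 without L. brevis 1 and 0.02 without L. brevis 3 or control 2.

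Leaving out L. brevis 1 or weighting the arrays changed the calls far beyond these genes. Without L. brevis 1, Loxl2 and Pdgfrb passed the adjusted threshold by limma, but so did 15.7% of all represented genes and 18.1% of varying probe sets. With array weights Col6a3, Loxl2, Sparc and Pdgfrb passed it (adjusted p = 0.0377, 0.0235, 0.0437 and 0.0225, limma), beside 22.9% of all represented genes and 24.7% of varying probe sets. Both Sparc probe sets passed it, in opposite directions. The brighter one was at 0.71 and the dimmer one at -0.41 (adjusted p = 0.0358, limma). The weights were 0.320, 0.881, 3.36 and 1.01 for L. brevis rats 1 to 4 and 0.755 to 1.30 for control rats. The weighted L. brevis values thus rest largely on L. brevis 3. With constant probe sets included in the fit, 0.142% of all probe sets and none of the members passed. No other choice of array or setting gave a call for any of the 7.

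**Figure D2:**
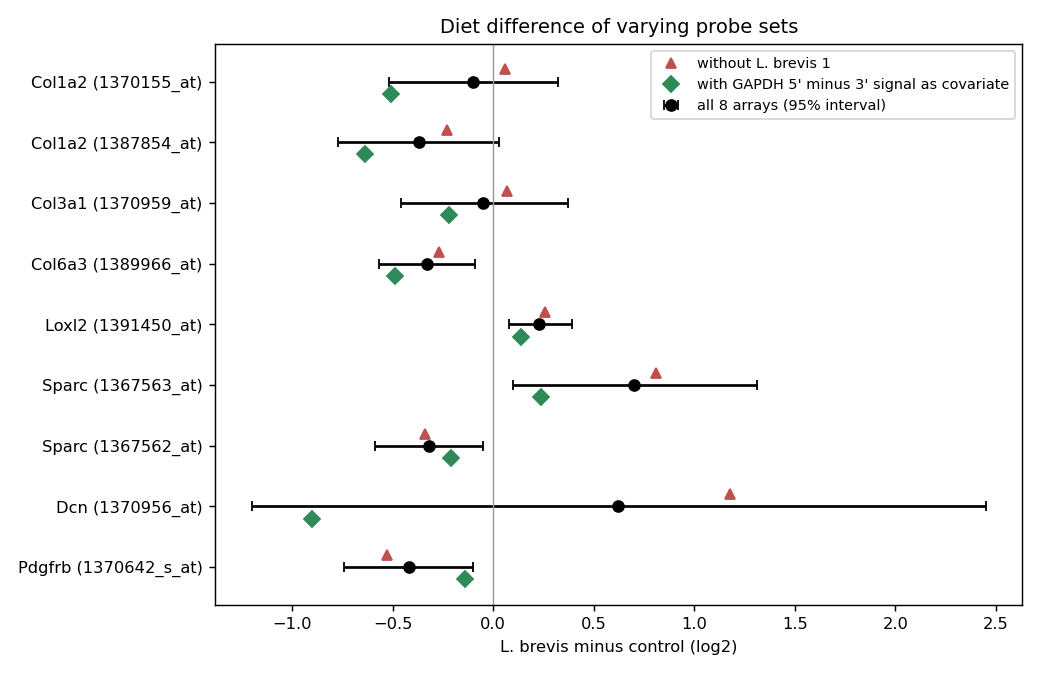
Difference between the diets, L. brevis minus control in log2 units, for the 9 varying probe sets: black points and bars give the estimate and 95% interval from all 8 arrays, red triangles the estimate without L. brevis 1 and green diamonds that with the GAPDH end difference as a covariate. Col6a3 lies at -0.33, -0.27 and -0.49 in the 3 settings, whereas Pdgfrb lies at -0.42, -0.53 and -0.14.

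Apart from Col6a3, the members at an unadjusted p under 0.05 between the diets also followed the GAPDH end difference across the rats. In 9 relations, 1 per varying probe set, r was -0.89 for Pdgfrb (exact permutation p = 0.00523, adjusted p = 0.0235; rho = -0.83, exact permutation p = 0.0154, adjusted p = 0.0693). For Loxl2 it was 0.85 (exact permutation p = 0.0116, adjusted p = 0.0348; rho = 0.86, exact permutation p = 0.0107, adjusted p = 0.0693). For the brighter Sparc probe set it was 0.83 (exact permutation p = 0.00486, adjusted p = 0.0235; rho = 0.79, exact permutation p = 0.0279, adjusted p = 0.0837). These 3 kept r at -0.92, 0.79 and 0.89 without the 2 rats farthest from the median of the GAPDH end difference, and at -0.76, 0.64 and 0.65 with diet means removed. The other Sparc probe set ran the opposite way (r = -0.72, exact permutation p = 0.049, adjusted p = 0.110; rho = -0.60, exact permutation p = 0.132, adjusted p = 0.238; -0.68 without the 2 farthest rats). For Col6a3 the relation over all rats was weaker (r = -0.32, exact permutation p = 0.443, adjusted p = 0.570; rho = -0.36, exact permutation p = 0.389, adjusted p = 0.50; -0.33 without the 2 farthest rats), but with diet means removed it was positive, at 0.64. With diet means removed r was also 0.84 and 0.58 for the brighter and dimmer probe sets of Col1a2, 0.69 for Dcn and 0.35 for Col3a1.

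With the GAPDH end difference as a covariate in the fit, the differences were -0.14 (SE 0.14) for Pdgfrb, 0.14 (SE 0.08) for Loxl2, and 0.24 (SE 0.31) and -0.21 (SE 0.16) for the Sparc probe sets. The adjusted p values by limma were then 0.841, 0.718, 0.895 and 0.790. Since the GAPDH end difference itself differed between the diets, the covariate and the diet cannot be told apart in full with 8 arrays. With the covariate 2 of the 7 represented genes had an unadjusted p under 0.05, beside 6.97% of all represented genes. Col6a3 was one of the 4 without the covariate, and Col1a2 was not: its difference was -0.51 (SE 0.16, unadjusted p = 0.016, adjusted p = 0.580, limma) with the covariate and -0.10 without it. The dimmer Col1a2 probe set was at -0.64 (SE 0.22) with the covariate.

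**Figure D3:**
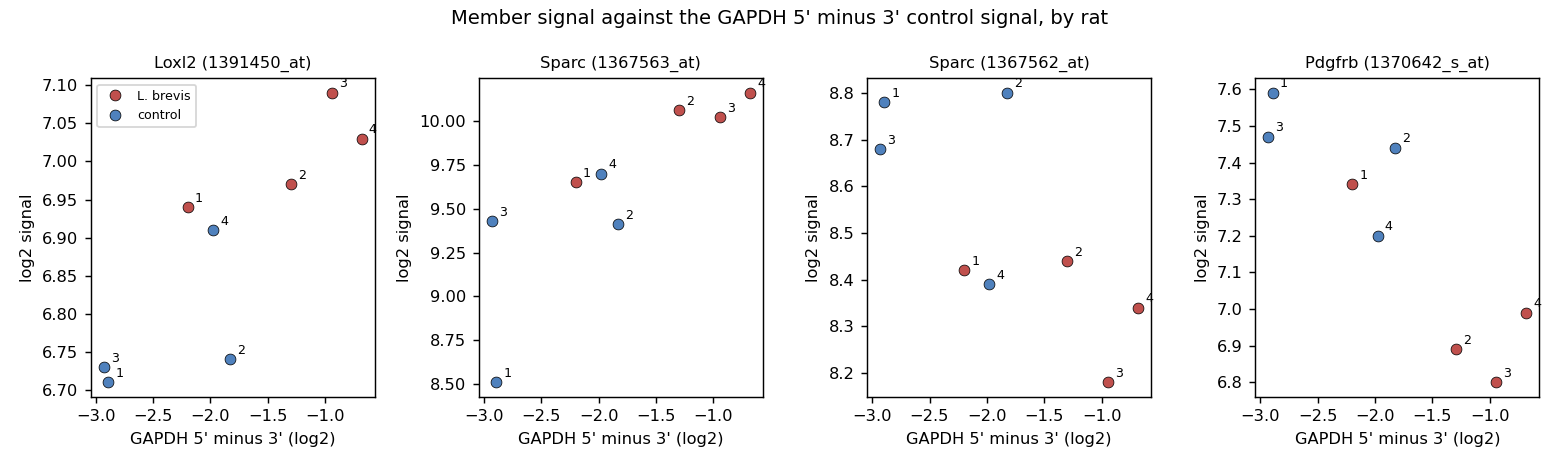
Log2 signal of Loxl2, both Sparc probe sets and Pdgfrb against the GAPDH end difference in log2 units, 1 point per rat with its number, L. brevis in red and control in blue. Loxl2 and the brighter Sparc probe set are higher where the GAPDH difference is closer to 0, and Pdgfrb is lower there (r = 0.85, 0.83 and -0.89).

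Across the 8 rats the members fell into 2 patterns. Of the 21 pairs of represented genes 12 had a positive and 9 a negative r, with a median of 0.21. The highest was between Loxl2 and Sparc (r = 0.84, exact permutation p = 0.00342, adjusted p = 0.0240; rho = 0.88, exact permutation p = 0.00724, adjusted p = 0.0507). The lowest were between Loxl2 and Pdgfrb (r = -0.93, exact permutation p = 0.00303, adjusted p = 0.0240; rho = -0.95, exact permutation p = 0.00114, adjusted p = 0.0240) and between Sparc and Pdgfrb (r = -0.87, exact permutation p = 0.00146, adjusted p = 0.0240; rho = -0.88, exact permutation p = 0.00724, adjusted p = 0.0507). These were the 3 pairs past the adjusted threshold, and they join the members that followed the GAPDH end difference. Sparc stands here at its brighter probe set, and its dimmer one ran inversely to that (r = -0.79). The Sparc pairs therefore describe the brighter probe set and not the gene. Without the 2 farthest rats r was 0.88, -0.87 and -0.97, and with diet means removed 0.63, -0.82 and -0.71. No pair passed the adjusted threshold with diet means removed, without L. brevis 1 or without control 4, and 1 pair did without L. brevis 2. Col6a3 and Loxl2 had r = -0.74 (exact permutation p = 0.0354, adjusted p = 0.124; rho = -0.76, exact permutation p = 0.0368, adjusted p = 0.129), which was -0.91 without the 2 farthest rats and -0.15 with diet means removed.

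The second pattern joined Col1a2, Col3a1 and Dcn. Col1a2 was related to Dcn (r = 0.76, exact permutation p = 0.0268, adjusted p = 0.112; rho = 0.79, exact permutation p = 0.0279, adjusted p = 0.129) and to Col3a1 (r = 0.75, exact permutation p = 0.0199, adjusted p = 0.104; rho = 0.76, exact permutation p = 0.0368, adjusted p = 0.129). Neither passed the adjusted threshold. Without the 2 farthest rats they were 0.77 and 0.50. Over the 8 rats the 6 pairs among Col1a2, Col3a1, Dcn and Col6a3 had r from 0.21 to 0.76. Without the 2 farthest rats the pairs with Col6a3 did not hold, at -0.44 with Col1a2, 0.02 with Col3a1 and -0.54 with Dcn, while Col3a1 and Dcn had 0.68. With diet means removed the 6 pairs had r from 0.75 to 0.87, and from 0.56 to 0.79 when L. brevis 1 was also left out, as a description of rats within a diet. With diet means removed, r with the GAPDH end difference was 0.84 for Col1a2, 0.69 for Dcn, 0.64 for Col6a3 and 0.35 for Col3a1. What part the GAPDH end difference has in this pattern was not tested. L. brevis 1 had the lowest value of all rats for Col1a2, Col3a1 and Col6a3.

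**Figure D4:**
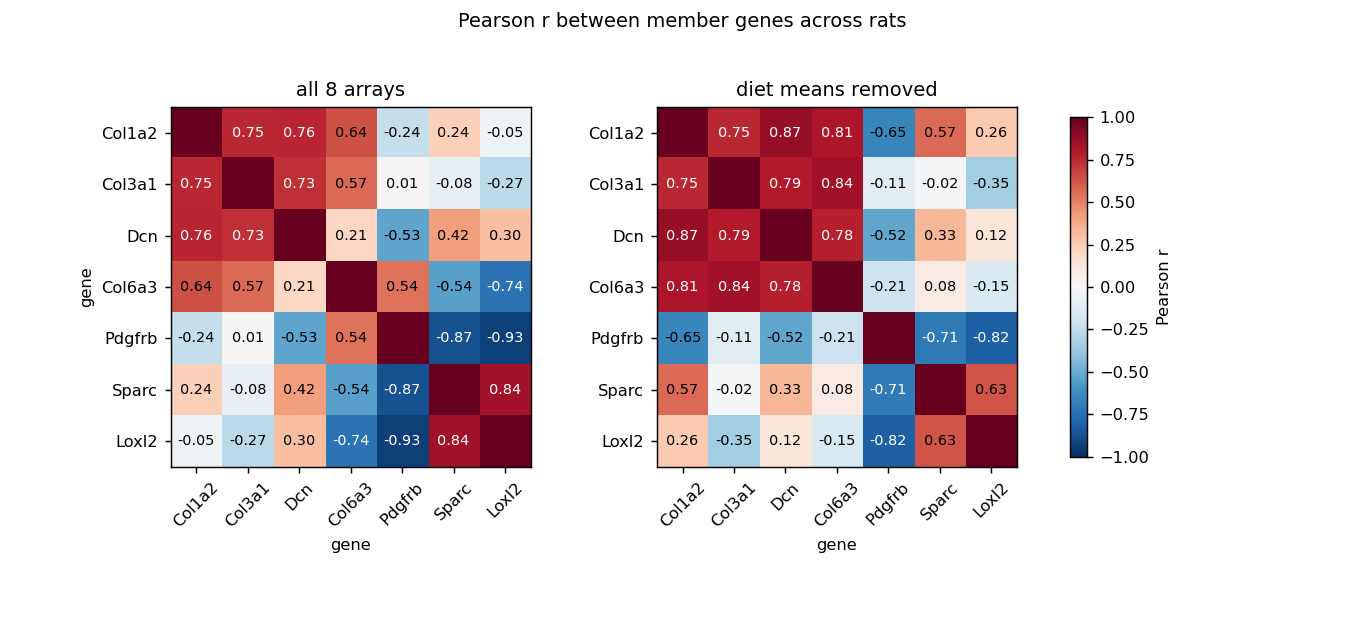
Pearson r between the 7 represented genes over the 8 rats (left) and with diet means removed (right), red for positive and blue for negative r on a scale of -1 to 1. Col1a2, Col3a1, Dcn and Col6a3 form a positive block on the right, and Pdgfrb is negative with Sparc and Loxl2 in both panels. Sparc is shown at its brighter probe set.

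The genes whose pattern was most like that of Col3a1, by Pearson r over the 8 rats among 4152 other represented genes, were Ifi27l2b (r = 0.94), Tmem37 (r = 0.92) and Ptn (r = 0.89). Ifi27l2b is an interferon-induced gene, and Ptn encodes the growth factor pleiotrophin. Ifi27l2b had 10.23, 11.84, 10.40 and 11.31 in L. brevis rats 1 to 4, against 11.57, 12.21, 10.94 and 10.32 in control rats 1 to 4. As for Col3a1, L. brevis 1 and 3 and control 4 were low. These genes were picked for their r, which carries no test.

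The wider matrix was described with 7 lists, which overlap and hold the members too. Together they had 206 genes, of which 188 were on the array and 76 had a varying probe set. Of these 76 genes 54 (71.1%) were lower and 22 higher in L. brevis livers, where 55.3% of all represented genes were lower. None passed the adjusted threshold by limma (lowest adjusted p = 0.101), beside 0.0481% of all represented genes. At an unadjusted p under 0.05 there were 14 lower (18.4%) and 3 higher (3.95%), against 12.9% and 8.66% of all represented genes. The median difference was -0.10, against -0.027 for all represented genes.

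Among collagen chains 9 of 30 measured genes varied, 8 lower and 1 higher, 4 lower ones at an unadjusted p under 0.05 (median -0.10). Col6a1, which assembles with the Col6a3 chain into type VI collagen, had 7.84, 7.87, 7.93 and 8.13 in L. brevis rats 1 to 4, against 8.20, 8.63, 8.39 and 8.30 in control rats 1 to 4. As for Col6a3, the groups did not overlap and every L. brevis liver was lower. Its difference was -0.44 (SE 0.11, adjusted p = 0.127, limma), or -0.62 with the GAPDH covariate (unadjusted p = 0.00289). Col5a1, which helps to start type I fibrils, differed by -0.39 (SE 0.14), or -0.17 with the covariate (unadjusted p = 0.390). Col13a1, a collagen of the cell membrane, differed by -0.15 (SE 0.06) and Col18a1, the precursor of endostatin, by -0.04 (SE 0.06).

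Of the stellate and mural cell markers 16 of 26 measured genes varied, 15 lower and 1 higher, 4 lower ones at an unadjusted p under 0.05 (median -0.24). Genes were counted at their brightest varying probe set, and for Reln and Cxcl12 the direction depended on that choice. Reln was at -0.23 there and at +0.62 at a dimmer varying one. Cxcl12 was at -0.03 there and at +0.41 and +1.20 at dimmer varying ones. Ecm1, a secreted glycoprotein that restrains the activation of latent TGF-beta in liver, had 9.18, 8.88, 9.02 and 8.99 in L. brevis rats 1 to 4, against 10.20, 9.90, 10.43 and 9.71 in control rats 1 to 4. The groups lay clearly apart. The difference was -1.04 (SE 0.16, unadjusted p = 0.000274, adjusted p = 0.101, limma), or -0.72 with the GAPDH covariate (unadjusted p = 0.00509). Adamtsl2, a binding partner of latent TGF-beta binding protein, differed by -0.37 (SE 0.08) with groups that did not overlap. Pth1r, the parathyroid hormone receptor, differed by -0.72 (SE 0.20), or -0.39 with the GAPDH covariate (unadjusted p = 0.168). Angptl6 differed by -0.30 (SE 0.13), or -0.45 with the covariate (unadjusted p = 0.0475).

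Matrix proteoglycans and glycoproteins had 19 of 39 measured genes varying, 13 lower and 6 higher, with 4 lower and 1 higher at an unadjusted p under 0.05 (median -0.03). Lamb2 and Lamb1, laminin beta chains of basement membranes, differed by -0.36 (SE 0.07) and -0.22 (SE 0.08), both without overlap between the groups. Bgn, biglycan, a proteoglycan related to decorin, differed by -0.33 (SE 0.11), or -0.13 with the GAPDH covariate (unadjusted p = 0.346). Ecm1 is in this list too. The higher member at an unadjusted p under 0.05 was Sparc, at its brighter probe set.

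In collagen processing and crosslinking 11 of 22 measured genes varied, 5 higher and 6 lower (median -0.10). An unadjusted p under 0.05 was reached by Loxl2, which was higher, and by Bmp1, the protease that removes the C-terminal propeptide of fibrillar procollagens, which was lower at -0.52 (SE 0.22). P4hb, a subunit of the prolyl hydroxylase that stabilises the collagen helix, differed by +0.38 (SE 0.16), P3h1 by -0.11 (SE 0.06) and the lysyl hydroxylase gene Plod1 by -0.18 (SE 0.14). P4hb, Bmp1 and Plod1 differed by 0.08, -0.11 and 0.12 with the GAPDH covariate.

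Among proteases and inhibitors 7 of 29 measured genes varied, 2 higher and 5 lower, 1 lower at an unadjusted p under 0.05 (median -0.06). That one was Mmp15, a membrane-bound metalloproteinase, at -0.27 (SE 0.10), or -0.11 with the GAPDH covariate (unadjusted p = 0.407). It was followed by Serpine2 (-0.12, SE 0.07), A2m (-0.52, SE 0.54) and Mmp14 (+0.17, SE 0.35). In TGF-beta and PDGF signalling 8 of 27 varied, 2 higher and 6 lower (median -0.25), and Smad1 and Pdgfrb had an unadjusted p under 0.05. Smad1, a signal transducer of BMP receptors, differed by +0.35 (SE 0.11) without overlap between the groups, or 0.21 with the GAPDH covariate (unadjusted p = 0.222). Pdgfra, the other PDGF receptor, differed by -0.52 (SE 0.26), the TGF-beta inhibitor gene Smad7 by -0.40 (SE 0.26) and Skil by -0.13 (SE 0.15).

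Matrix receptors were split, with 10 of 20 measured genes varying, 5 higher and 5 lower, and 1 lower at an unadjusted p under 0.05 (median -0.01). That one was Itgb3, the integrin beta 3 chain, at -0.67 (SE 0.20), or -0.26 with the GAPDH covariate (unadjusted p = 0.266). Itgb1, the beta 1 chain shared by the collagen-binding integrins, differed by +0.61 (SE 0.27), or -0.06 with the GAPDH covariate. Sdc4, a heparan sulfate proteoglycan of the cell surface, differed by -0.42 (SE 0.25) and the collagen receptor gene Ddr1 by -0.52 (SE 0.32).

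**Figure D5:**
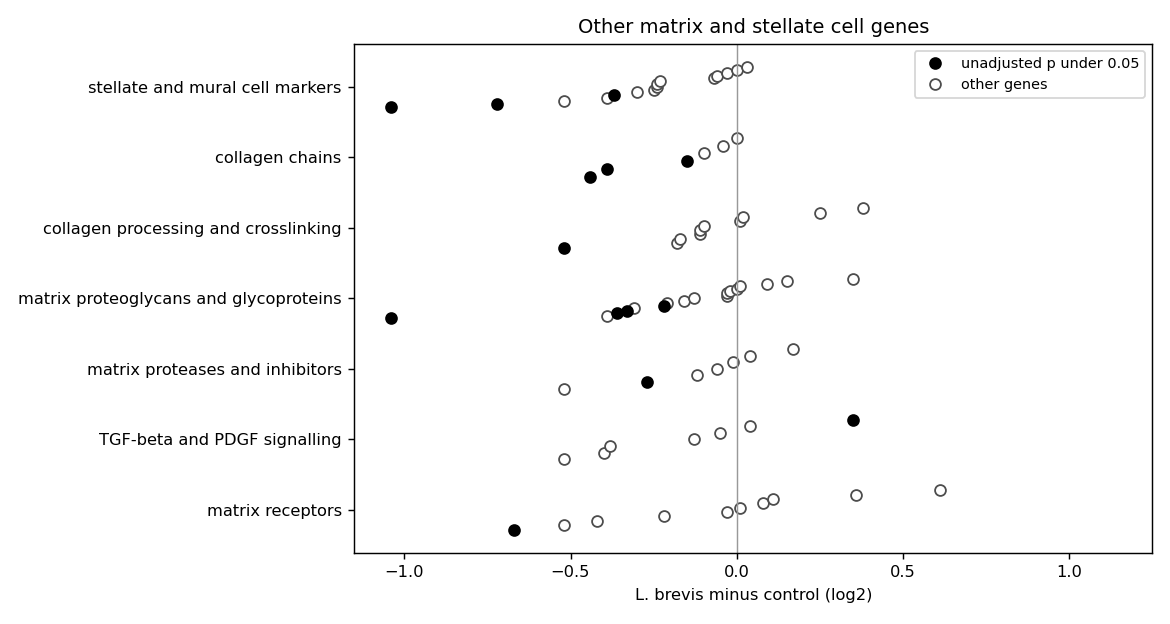
Difference between the diets, L. brevis minus control in log2 units, for the varying non-member genes of the 7 lists, 1 point per gene at its brightest varying probe set, filled where the unadjusted p is under 0.05. The filled points lie below 0 except Smad1, at 0.35, and the lowest point, at -1.04, is Ecm1 in both lists that hold it.

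Without L. brevis 1, 9 of these 76 genes (11.8%) passed the adjusted threshold by limma, 7 lower and 2 higher, against 15.7% of all represented genes. They were Adamtsl2, Ecm1, Itgb3, Lamb2, Mmp15, Pdgfrb and Pth1r on the lower side and Itgb1 and Loxl2 on the higher side.

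Markers of other cell types in a liver piece were measured beside these lists. Of 14 measured endothelial markers 8 varied and all 8 were lower, including 4 whose unadjusted p was under 0.05 (Kdr, Pecam1, Stab1 and Egfl7, named after their values were seen). Of all represented genes 55.3% were lower, and 12.9% were lower at that p. Kdr, Pecam1, Stab1 and Egfl7 differed by -0.46, -0.26, -0.83 and -0.14. With the GAPDH covariate they were at -0.46, -0.15, -0.17 and -0.14 (unadjusted p = 0.0269, 0.153, 0.478 and 0.0935, limma). A dimmer varying probe set of Kdr differed by +0.02. The summed linear signal of the endothelial markers was 3950 to 4180 in L. brevis and 4470 to 6570 in control livers, without overlap, and Kdr, Lyve1 and Fcgr2b were the brightest. Smooth muscle markers had 6 of 11 varying, 5 lower and 1 higher, none at an unadjusted p under 0.05, with Mylk, Cald1 and Myh11 the brightest. Their sums of 1680 to 1910 in L. brevis and 1920 to 2200 in control livers were barely apart. At each of the 6 varying markers the diets overlapped. The part of both cell types in the matrix differences was not tested. Portal fibroblast markers had 3 of 10 varying, Dpt, Gsn and Eln, with sums of 1250 to 2270 in L. brevis and 1550 to 2460 in control livers. Thy1, Fbln2, Gli1 and Entpd2, which define portal fibroblasts, held 1 value on all arrays. Kupffer cell and macrophage markers had 12 of 14 varying, 9 higher and 3 lower. Adgre1 (+0.65, SE 0.16, groups not overlapping) and C1qb (+0.73, SE 0.26) were the 2 higher ones with an unadjusted p under 0.05, named after their values were seen, and 8.66% of all represented genes were higher at that p. With the GAPDH covariate Adgre1 was at 0.59 and C1qb at 0.14 (unadjusted p = 0.0485 and 0.569, limma). The 3 lower ones were Cd163 (-0.16), Mrc1 (-0.15) and Lyz2 (-0.29). The list had Cd5l, Clec4f and Lyz2 as its brightest genes and sums of 8330 to 10400 in L. brevis and 8160 to 10300 in control livers. Hepatocyte genes had 10 of 11 varying, 5 in each direction, with Alb, Fgb and Ttr the brightest and sums of 108000 to 112000 in L. brevis and 109000 to 113000 in control livers.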

How the data were processed

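Liver RNA of 4 L. brevis and 4 control rats was labelled with biotin and hybridised to Affymetrix 3' expression arrays, per the labels' protocols. The values deposited by the authors are log2 signals of probe sets, with medians of 6.61 to 6.63 per array. Since 24719 of the 31042 probe sets were constant over the arrays, these medians cannot show whether the varying ones share 1 scale. The summarisation and normalization are not given in the sources used here, nor are scan dates. Precision is limited by how many arrays there are. The labels call the samples biological replicates.

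From 31099 probe sets 57 Affymetrix controls were left out. The platform annotation gave 1 symbol for 20826 probe sets, several for 436 and none for 9780, and symbols were updated through gene identifiers, which matched for 20758. A gene was represented by its brightest varying one-gene probe set, which gave 4159 genes. The fit was limma 3.58.1 in R 4.3.3 (lmFit, eBayes with an intensity trend), two-sided, to the 6323 varying probe sets, and was tested on simulated data. A fit to all probe sets was an alternative, since the 24719 flat ones have no measured spread. Correlations used exact permutation of the 8 rats with Benjamini-Hochberg adjustment. The members and lists were chosen with earlier results of these data known. Named genes were all members, up to 4 other genes per matrix list by smallest unadjusted p, the 3 genes most like Col3a1, the 3 highest and 3 lowest pairs, and the 3 brightest genes of each cell type list. For Col1a1 and Timp1 no likeness was computed, as neither varied. Alternatives were quantile normalization, median centring, a filter on dim probe sets, no trend, robust variance, array weights, a replicate block, the GAPDH covariate and each array left out.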

Additional observations from a re-analysis of the deposited data

Results flagged for a closer look

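In 90 groups of 4 rats examined, 5 had 1 rat far from the other 3, where chance alone gives about 1 group in 20. Control 4 stood out at the dimmer probe set of Col1a2, with 8.78 against 8.62 to 8.65 in the other control rats. Control 4 also stood out for Loxl2, with 6.91 against 6.71 to 6.74. Control 1 had 6.61 for Smad1, against 7.00 to 7.01 in the other control rats. L. brevis 2 had 7.93 for Ddr1, against 6.61 to 6.81 in the other L. brevis rats. The summed signal of the skeletal muscle markers was 12500 in L. brevis 2, against 2470 to 2910 in the other L. brevis rats.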

How the results depend on the processing

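The number of members past the adjusted threshold was 0 in the fit to 6323 varying probe sets, 4 with array weights, and 0 to 2 when each array was left out in turn, with 2 without L. brevis 1. For the 76 varying genes of the matrix lists it was 0, 18 (23.7%) with array weights and 0 to 9 with arrays left out. The 9 (11.8%) came without L. brevis 1. Of all represented genes 22.9% passed with array weights and 15.7% without L. brevis 1. At an unadjusted p under 0.05 the members numbered 4, 2 with the GAPDH covariate and 3 to 4 with arrays left out, and the list genes 17, 8 with the GAPDH covariate, 28 with array weights and 12 to 27 with arrays left out. All represented genes at that p made up 21.5%, 6.97% with the GAPDH covariate, 40.9% with array weights and 34.3% without L. brevis 1, which gave the 27. Over all varying probe sets limma called 4, against 0 with the GAPDH covariate, 1561 with array weights and 1146 without L. brevis 1, and 44 of 31042 when flat probe sets were included. The median of the members ran from -0.16 to 0.07 with arrays left out. Directions turned for Col1a2 at its brighter probe set (-0.19 to 0.06 with arrays left out), for Col3a1 (-0.16 to 0.07, above 0 without L. brevis 1, L. brevis 3 or control 2) and for Dcn (-0.90 with the GAPDH covariate). Col6a3, Loxl2, Pdgfrb and both Sparc probe sets kept their direction under every alternative run. Pairs of members past the adjusted threshold numbered 3, 0 with diet means removed and 0 to 4 with arrays left out. A replicate block gave no call for any member (adjusted p = 0.0752 for the brighter Sparc probe set, 0.0876 for Pdgfrb and 0.0932 for Loxl2, limma), and 3 of the 4 L. brevis rats correlated best with the control rat of their own number, a hint from the data and not from the design. Same-numbered rats deviated from their group means with correlations of 0.359, 0.203, 0.0778 and 0.381 for numbers 1 to 4. The labels name no pairs, so the main fit did not take the numbers as pairs. Whether they mark pairs was not tested. The cause of these changes was not tested. Counts of list genes at an unadjusted p were added after the data were seen. The number of arrays, and the 9 flat probe sets, limit what can be measured.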

Other observations

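Marker lists of 3 kinds of tissue that can come with a piece of liver complete the account. Cholangiocyte markers had 2 of 7 measured genes varying, Epcam and Cldn7, with summed linear signals of 263 to 299 in L. brevis and 240 to 328 in control livers. Mesothelial markers had 3 of 7 varying, Gpm6a, Cpe and Upk1b, with sums of 167 to 483 in L. brevis and 256 to 483 in control livers. Adipose and pancreas markers had 4 of 11 varying, with Cela1, Cfd and Fabp4 the brightest and sums of 604 to 1260 in L. brevis and 628 to 918 in control livers. The diets overlapped in all 3 sums.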
